A study of Mus musculus with 21 samples.

Results

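The insulin-like growth factor (IGF) axis was examined in podocyte fractions of mouse kidney through 10 genes: the ligand gene Igf1, the receptor genes Igf1r and Igf2r, and the binding protein genes Igfbp1 to Igfbp7. They are 10 of the 27179 genes in the count tables. The family was chosen by measured values: Igfbp3 was lower and Igfbp7 higher in podocyte fractions of mice given MCC950, an inhibitor of the NLRP3 inflammasome, than in those of mice given saline, so values of the treatment contrast are descriptions and carry no test. The values of Igfbp3 and Igfbp7 with age are given without a test as well, since they rest on the same saline libraries.

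The study asked how middle age and NLRP3 inhibition alter the podocyte, the epithelial cell that forms the filtration barrier of the glomerulus. All mice were male, wildtype and of the C57BL/6J strain. The 6 young mice were 4 months old and untreated, and both treated groups were 19.5 months old, 7 mice given saline and 8 given MCC950 (10 mg/kg into the peritoneum) for 6 weeks from 18 months of age. One RNA-seq library was made per mouse from cells of digested cortex captured with nephrin antibodies and magnetic beads. Since the young mice were not injected, age cannot be told apart from handling and injection.

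IGF-1 acts through the IGF-1 receptor, a tyrosine kinase that signals to the PI3K, Akt and mTOR pathway, while the product of Igf2r binds IGF-2 and mannose-6-phosphate-tagged lysosomal enzymes and carries them to lysosomes. The high-affinity binding proteins IGFBP-1 to IGFBP-6 hold IGFs in blood and tissue and limit or prolong their access to the receptor. IGFBP-7 shares the amino-terminal domain but binds IGFs weakly, and it is a secreted protein known as a senescence-associated factor and as a marker of stressed tubular cells in urine. In the kidney, the growth hormone and IGF system is known for its effects on filtration and glomerular growth.

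Total counts were 27375870 to 36827823 per young library, 45772937 to 84876399 per saline library and 35440472 to 58247271 per MCC950 library, and mitochondrial genes took 51.5 to 80.4%, 63.0 to 79.2% and 49.9 to 63.7% of them. Podocyte markers were present in every library, but the captured cells were not podocytes alone. Nphs1, which encodes nephrin, had a median of 41.4 CPM (read counts scaled to a fixed library size, the usual counts-per-million unit) in young, 6.48 in saline and 11.7 in MCC950 libraries. The summed CPM of 15 podocyte markers was 791 to 1776 in young, 291 to 581 in saline and 400 to 689 in MCC950 libraries. Proximal tubule markers summed to 1562 to 6240 CPM over all libraries, and loop of Henle and distal tubule markers to 2637 to 5166. In young and saline libraries the latter had the higher median (3828 and 4418 CPM, against 2737 and 2475). Macrophage and myeloid markers summed to 450 to 4052 and endothelial markers to 314 to 1100, with no marker of these lists at 0 in all libraries. MCC950 replicate 8 held the highest T cell sum (77.3 CPM, against at most 33.8 in the other MCC950 libraries). The sum of 8 B and plasma cell markers was 302 to 784 CPM in young, 5883 to 9469 in saline and 1232 to 11302 in MCC950 libraries, the highest in MCC950 replicate 7, and all 8 markers had a higher mean in saline than in young libraries. In such bulk libraries, fewer cells of a type and less RNA per cell cannot be told apart.

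The genes of the 2 members that led to the choice lie on different chromosomes. In GRCm38, Igfbp3 spans chr11:7206086-7213923 on the minus strand, 3539 bases from the end of Igfbp1 on the plus strand, and Igfbp7 spans chr5:77349240-77408041 on the minus strand. Igfbp2 and Igfbp5 form a second pair of neighbours on chromosome 1, with a gap of 5457 bases. The promoters of Igfbp3 and Igfbp7 (RefSeq starts, GRCm38.p6, 250 bases before to 50 bases after the start) are shown because these genes moved in opposite directions with MCC950. They are written 5′ to 3′ on the minus strand, from chr11:7213874-7214173 and chr5:77407996-77408295, and capitals mark GC boxes, the letters GGGCGG or, on the other strand, CCGCCC.
Igfbp3 promoter: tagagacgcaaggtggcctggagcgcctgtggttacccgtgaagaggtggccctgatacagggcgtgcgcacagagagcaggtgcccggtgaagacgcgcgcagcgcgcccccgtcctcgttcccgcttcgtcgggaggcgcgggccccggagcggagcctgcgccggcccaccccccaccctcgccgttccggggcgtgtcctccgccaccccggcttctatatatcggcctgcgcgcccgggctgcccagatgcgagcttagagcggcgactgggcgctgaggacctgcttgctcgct
Igfbp7 promoter: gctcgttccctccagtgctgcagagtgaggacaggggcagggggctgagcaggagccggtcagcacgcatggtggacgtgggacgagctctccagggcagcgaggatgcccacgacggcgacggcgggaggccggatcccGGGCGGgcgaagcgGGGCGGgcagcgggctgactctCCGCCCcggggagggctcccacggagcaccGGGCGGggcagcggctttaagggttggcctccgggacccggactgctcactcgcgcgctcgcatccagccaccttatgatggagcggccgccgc
Both are rich in G and C, at 71.7% for Igfbp3 and 73.3% for Igfbp7, and hold 37 and 33 CpG dinucleotides, against a median of 7 over all promoters of that length. The Igfbp7 promoter held 4 GC boxes and the Igfbp3 promoter none, and 35.7% of 32851 RefSeq promoters held at least 1. Neither held a CCAAT box (CCAAT or ATTGG, in 37.4% of promoters), TATAAA or TTTATA (13.6%), or a forkhead motif (GTAAACA or TGTTTAC, 3.65%). A match of letters is a description and not a binding site.

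Per length, Igfbp7, Igfbp5 and Igfbp4 transcripts exceeded those of the ligand, the receptors and the other binding proteins in every group. In CPM per kilobase of exon, the level of Igfbp7 was 151 ± 20 (SD, n = 6) in young, 125 ± 16.9 (n = 7) in saline and 176 ± 33.7 (n = 8) in MCC950 libraries. Igfbp5 followed at 88.1 to 132 in young, 29.9 to 74.4 in saline and 37.6 to 72.3 in MCC950 libraries, overlapping with Igfbp7 in young libraries alone. Igfbp4 was at 46.6 ± 15.8, 46.8 ± 14.5 and 70.9 ± 15 CPM per kilobase. The ranges of Igfbp5 and Igfbp4 did not overlap in young libraries but did in saline and MCC950 libraries, and under MCC950 Igfbp4 had the higher mean. Igfbp3, Igf1r and Igf2r formed a lower tier, between 2.52 and 6.92 CPM per kilobase in group mean, and the ranges of Igfbp3 and Igf1r overlapped in every group, whereas Igf2r lay below Igf1r without overlap in young and saline libraries. Igf1 and Igfbp1 had group means between 0.678 and 2.4 CPM per kilobase, with overlapping ranges in every group. Igfbp6 and Igfbp2 were close to the limit of detection.

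**Figure D1:**
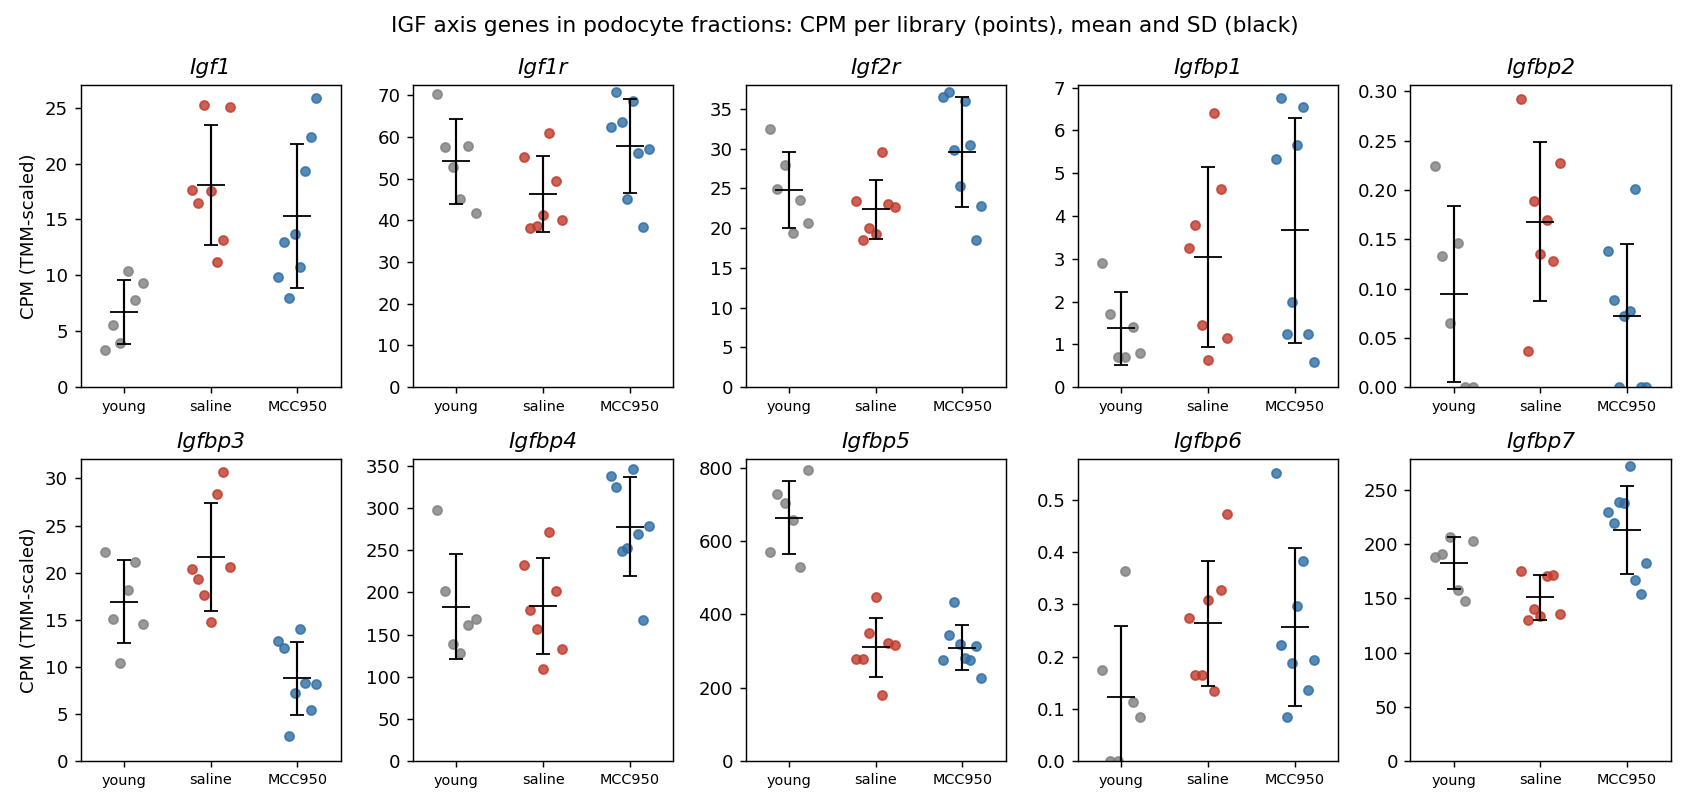
CPM values (TMM-scaled) of the 10 IGF axis genes in each of the 21 libraries, 1 panel per gene with a linear axis from 0, by group. Points are libraries and black marks the mean with its SD. Igf1 and Igfbp5 separate saline from young libraries without overlap, in opposite directions, as do 9.37% of all genes tested in either direction. Igfbp3, chosen from the contrast of MCC950 with saline, separates these 2 groups, as do 1.74% of all genes tested in either direction.

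The ligand gene Igf1 rose with age. It lay between 3.31 and 10.4 CPM in young libraries (median 6.67), between 11.2 and 25.2 in saline libraries (median 17.5) and between 7.97 and 25.9 in MCC950 libraries (median 13.3). Every saline library stood above every young library, while the MCC950 libraries spread around the saline range, with 3 of 8 below the lowest saline library and 1 above the highest. The difference between saline and young was 1.44 on the log2 scale (SE 0.30), a 2.71-fold rise, with an adjusted p of 0.00175 (edgeR's quasi-likelihood test with Benjamini-Hochberg adjustment over 16377 genes), higher in 7 of 7 saline libraries. The adjusted p stayed between 0.00122 and 0.00744 when each of the 21 libraries was left out in turn. The difference between MCC950 and saline was -0.23 (SE 0.27), and 0.47 (SE 0.24) in a fit that held the proximal tubule score as a covariate. It was -0.09 (SE 0.11) with the macrophage score, -0.29 (SE 0.30) with the podocyte score and -0.30 (SE 0.32) with the endothelial score.

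Igf1 varied with the macrophage markers of the libraries. All 11 macrophage and myeloid markers had a higher mean in saline than in young libraries, and their sum ranged from 450 to 2263 CPM in young, 1634 to 3959 in saline and 1082 to 4052 in MCC950 libraries. After the group means were taken away, Igf1 and the mean log2 CPM of these markers had a Pearson r of 0.92 and a Spearman rho of 0.91 over the 21 libraries, with r of 0.94 within young, 0.74 within saline and 0.98 within MCC950 libraries. Points from 1 library share its depth and scaling, so the correlation is a description. With the macrophage score added to the model as a covariate, an alternative chosen after the values were seen, the rise of Igf1 with age was 0.73 (SE 0.14, adjusted p = 0.00148 by edgeR), smaller than without it and still past the threshold. With the podocyte or the endothelial score as covariate instead, it was 1.68 (adjusted p = 0.238) or 1.22 (adjusted p = 0.541), and only 15 and 19 of all genes were called in these 2 fits. The sums of both marker lists did not overlap between young and saline libraries, so these fits cannot separate the score from age.

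Neither receptor gene passed the test with age. Igf1r lay between 41.8 and 70.3 CPM in young libraries (median 55.1), 38.1 and 60.9 in saline (median 41.2) and 38.5 and 70.8 in MCC950 libraries (median 59.7). Igf2r lay between 19.4 and 32.5 CPM in young (median 24.2), 18.5 and 29.6 in saline (median 22.7) and 18.5 and 37.1 in MCC950 libraries (median 30.2). The groups overlapped for both. With age the log2 difference was -0.23 (SE 0.15, adjusted p = 0.281) for Igf1r and -0.15 (SE 0.16, adjusted p = 0.526) for Igf2r by edgeR.

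With MCC950 both receptor genes had higher means than with saline, by 0.32 (SE 0.14) for Igf1r and 0.40 (SE 0.15) for Igf2r on the log2 scale. The highest saline level was exceeded in 4 of 8 MCC950 libraries for Igf1r and in 5 of 8 for Igf2r, with 1 MCC950 library under the lowest saline level of Igf2r. The receptors varied together between libraries of a group (r = 0.87 over 21 libraries). Both followed the proximal tubule score, with r of 0.86 for Igf1r and 0.82 for Igf2r. With the loop of Henle and distal tubule score, which was not used as a covariate, r was 0.67 and 0.66. With the proximal tubule score as a covariate, the differences between MCC950 and saline were -0.12 (SE 0.10) and -0.05 (SE 0.12). The mean of 14 of the 15 proximal tubule markers was higher in MCC950 than in saline libraries, and their sum was 2564 to 6240 CPM against 1562 to 3840.

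Igfbp5, which binds IGFs and the extracellular matrix, fell with age. It ranged from 529 to 795 CPM in young libraries (median 680), from 179 to 447 in saline (median 317) and from 226 to 434 in MCC950 libraries (median 297). All 7 saline libraries and all 8 MCC950 libraries lay below the lowest young library, whereas the MCC950 libraries lay inside the saline range. With age Igfbp5 fell by 1.10 on the log2 scale (SE 0.17, 2.14-fold, adjusted p = 0.000101 by edgeR), and the adjusted p was between 4.42e-05 and 0.000324 when single libraries were left out. The difference between MCC950 and saline was -0.01 (SE 0.15), and the means were 309 and 310 CPM.

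Markers of several cell types, glomerular ones among them, had lower means in saline than in young libraries. The mean of 14 of 15 podocyte markers was lower in saline than in young libraries, as was that of 11 of 12 endothelial markers, whose sum was 609 to 1100 CPM in young, 345 to 520 in saline and 314 to 577 in MCC950 libraries. The same held for 13 of 15 proximal tubule, 10 of 10 collecting duct, 11 of 11 mesangial and smooth muscle and 8 of 8 parietal epithelial markers. Other lists differed: 7 of 10 fibroblast and 4 of 10 loop of Henle and distal tubule markers had a higher mean in saline than in young libraries. Within groups Igfbp5 followed the endothelial score (r = 0.79; 0.79 in young, 0.83 in saline and 0.91 in MCC950 libraries) and the podocyte score (r = 0.78; 0.64, 0.97 and 0.73). With the podocyte score as a covariate the difference with age was -0.13 (SE 0.23, adjusted p = 0.786 by edgeR), and with the endothelial score it was -0.23 (SE 0.20, adjusted p = 0.679). The summed podocyte markers (791 to 1776 CPM in young, 291 to 581 in saline) and the endothelial sums did not overlap between these groups. These 2 fits therefore cannot separate the score from age, and only 15 and 19 of all genes were called in them. With the macrophage score, the Igfbp5 difference with age was -1.10 (adjusted p = 0.000656). With MCC950, 13 of 15 podocyte markers but 3 of 12 endothelial markers had a higher mean than with saline, and the mean of Igfbp5 was nearly the same. A cause of the Igfbp5 levels was not tested.

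Of the 8 members other than Igfbp3 and Igfbp7, 7 passed the filter on low counts, and with age 1 of these rose (Igf1) and 1 fell (Igfbp5). Over all genes tested 24.6% were called with age, 12.2% higher and 12.4% lower, so 2 of 7 is close to the background share. The same 2 members were those whose saline and young libraries did not overlap, against 9.37% of all genes tested (4.51% higher and 4.86% lower). Between MCC950 and young libraries only Igfbp5 was without overlap among the members, against 7.94% of all genes (3.28% higher and 4.66% lower). The median difference with age was 0.01 over the 7 members and 0.02 over all genes.

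**Figure D2:**
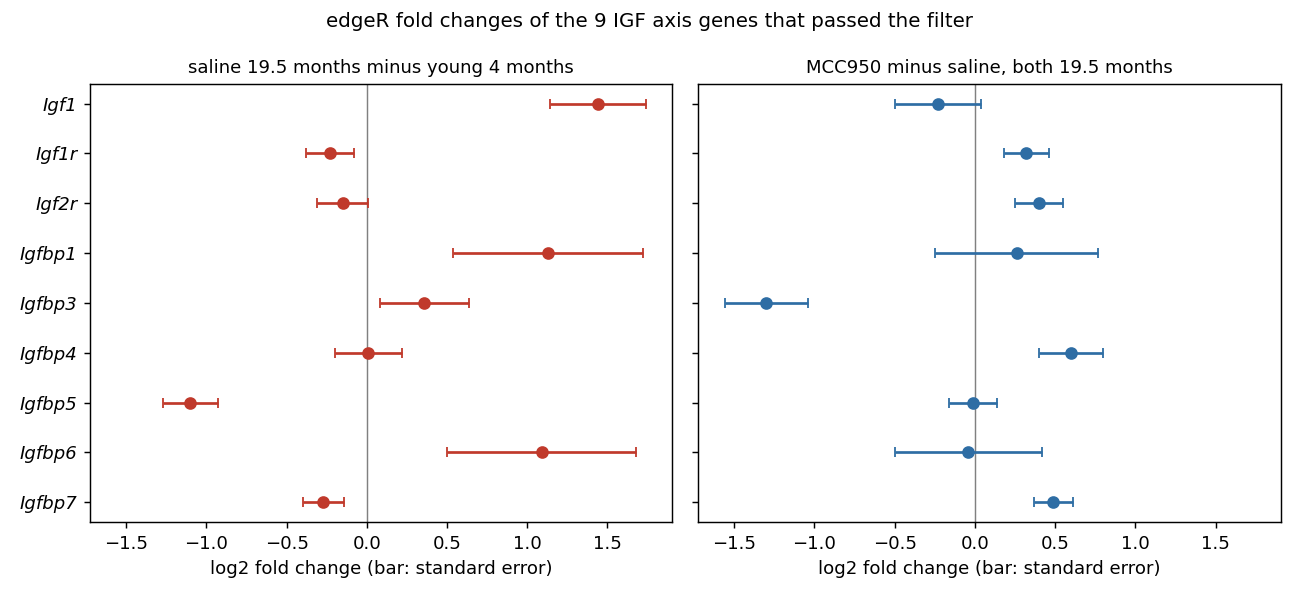
Log2 fold changes of the 9 members that passed the filter, with standard errors as bars, for saline at 19.5 months minus young at 4 months (left) and MCC950 minus saline (right). Igf1 and Igfbp5 stand farthest from 0 in opposite directions among the precise values with age, and Igfbp3 at -1.30 is the only member far below 0 with MCC950; the panels share the saline libraries.

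Igfbp3, the main carrier of IGFs in blood as part of the ternary complex, was lower with MCC950. Its CPM ranged from 10.4 to 22.2 in young libraries (median 16.6), from 14.8 to 30.7 in saline (median 20.4) and from 2.61 to 14 in MCC950 libraries (median 8.19). All 8 MCC950 libraries lay below all 7 saline libraries, as in 0.586% of all genes tested, and the gene was chosen from this contrast. Of the 8, 5 lay below the lowest young library too. The log2 difference was -1.30 (SE 0.26), a 2.47-fold lower level, and leaving out single libraries gave -1.43 to -1.17. Between saline and young the difference was 0.36 (SE 0.28), with 2 of 7 saline libraries above the highest young library. It was -0.58 (SE 0.50) with the podocyte score and -0.42 (SE 0.49) with the endothelial score as a covariate, in fits that cannot separate these scores from age.

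The lower Igfbp3 level with MCC950, for which the gene was chosen, was present with each of the 4 marker scores used as a covariate. These fits reuse the same libraries, and scores of other lists, such as fibroblast and mesangial markers, were not used. Within MCC950 libraries Igfbp3 had r of 0.81 with the fibroblast and 0.69 with the mesangial score. Within saline libraries these were -0.60 and -0.57. Igfbp3 had r of 0.46 with the proximal tubule score, -0.48 with the podocyte score and -0.07 with the macrophage score within groups. With the proximal tubule score as a covariate the difference between MCC950 and saline was -1.82 (SE 0.29), with the endothelial score -1.54 (SE 0.27), with the macrophage score -1.35 (SE 0.25) and with the podocyte score -1.04 (SE 0.26). The mean was higher in MCC950 than in saline libraries for 14 of 15 proximal tubule and 13 of 15 podocyte markers. The same held for only 1 of 10 collecting duct, 2 of 10 fibroblast, 3 of 11 mesangial and smooth muscle and 3 of 12 endothelial markers. Among blood and immune lists it held for 1 of 11 macrophage and myeloid, 1 of 8 T cell, 0 of 8 B and plasma cell and 0 of 4 red blood cell markers. Parietal epithelial markers were higher in 5 of 8 cases, and loop of Henle and distal tubule markers in 5 of 10. A cause of the lower Igfbp3 level was not tested. MCC950 replicate 3 had the lowest Igfbp3 level, and without it the difference was -1.17. Among members, Igfbp3 varied most closely with its neighbour Igfbp1 (r = 0.65), then with Igfbp4 (r = 0.57), and opposite to Igfbp5 (r = -0.58).

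The genes whose variation between libraries was most like that of Igfbp3, among 12244 candidates, were Morf4l1 (r = 0.85), Irx2 (0.83), Mgp (0.82), Trappc6a (0.82) and Cxcl12 (0.81). Mgp encodes matrix Gla protein, an inhibitor of calcification, Cxcl12 a chemokine, and Irx2 a homeobox factor. Without MCC950 replicate 3 the values were 0.73, 0.76, 0.72, 0.85 and 0.80 over 20 libraries, so Trappc6a and Cxcl12 rested least on that library. Within saline libraries alone they ran from 0.27 for Cxcl12 to 0.92 for Trappc6a.

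Igfbp7 was higher with MCC950. It ranged from 148 to 207 CPM in young libraries (median 190), from 130 to 175 in saline (median 140) and from 154 to 272 in MCC950 libraries (median 225). The highest saline level was exceeded in 6 of 8 MCC950 libraries, and the highest young level in 5 of 8. The difference between MCC950 and saline was 0.49 on the log2 scale (SE 0.12, 1.41-fold), between 0.44 and 0.55 with each library left out. Between saline and young it was -0.27 (SE 0.13), with 4 of 7 saline libraries below the lowest young library.

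With the proximal tubule score as a covariate the Igfbp7 difference between MCC950 and saline was 0.23 (SE 0.13). Within groups Igfbp7 had r of 0.61 with this score, 0.65 with the collecting duct score and -0.66 with the macrophage score. The mitochondrial share of counts was lower in MCC950 libraries, and with mitochondrial genes left out the difference was 0.49. That fit concerns the scaling between libraries alone, and a link of Igfbp7 to the mitochondrial share was not tested. The genes most like Igfbp7 between libraries were Dusp28 (r = 0.90), Hoxb5, Chchd10 and Slc25a3 (0.89 each) and Atp5d (0.87), of which Chchd10, Slc25a3 and Atp5d encode mitochondrial proteins. An 85-base stretch of Igfbp7 exons (7.03%) is shared with Polr2b on the opposite strand, and reads there cannot be told apart without strand.

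Igfbp4, a binding protein that mostly restrains IGF action and is cleaved by pappalysin-1, had the same mean in young and saline libraries. It ranged from 128.0 to 298.4 CPM in young (median 164.8), 109.3 to 272.1 in saline (median 179.0) and 166.9 to 346.9 in MCC950 libraries (median 274.1). The difference with age was 0.01 (SE 0.21, adjusted p = 0.986 by edgeR), and that between MCC950 and saline was 0.60 (SE 0.20). The MCC950 libraries overlapped with the saline libraries, and 4 of 8 exceeded all of them. Igfbp4 followed the proximal tubule score closely within groups (r = 0.95, rho = 0.89; 0.92 in young, 0.98 in saline and 0.93 in MCC950 libraries). With that score as a covariate the difference between MCC950 and saline was -0.06 (SE 0.09).

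Igfbp1, a binding protein that insulin represses in liver, varied widely within each group. It ranged from 0.692 to 2.89 CPM in young (median 1.1), 0.638 to 6.4 in saline (median 3.24) and 0.578 to 6.75 in MCC950 libraries (median 3.66), and the groups overlapped. With age the difference was 1.13 (SE 0.59, adjusted p = 0.171 by edgeR), with 4 of 7 saline libraries above the highest young library. It was 1.40 with the proximal tubule score as a covariate (adjusted p = 0.0211) and 1.90 with the macrophage score (adjusted p = 0.0434). With the podocyte score it was -0.29 (adjusted p = 0.909) and with the endothelial score -0.13 (adjusted p = 0.971). Neither negative value passed the test, and these 2 scores cannot be separated from age, so no change of direction is shown. Between MCC950 and saline the Igfbp1 difference was 0.26 (SE 0.51), and -1.07 with the proximal tubule score as a covariate.

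Igfbp6, which prefers IGF-2, and Igfbp2 were detected with few reads. Igfbp6 had 0 to 10 reads in young, 7 to 25 in saline and 4 to 28 in MCC950 libraries, and the difference with age was 1.09 (SE 0.59, adjusted p = 0.193 by edgeR). Without young replicate 4 it was 1.76 (adjusted p = 0.0484). Igfbp2 did not pass the filter, with 0 to 15 reads per library and 0 reads in 2 young and 3 MCC950 libraries. A count of 0 allows up to 0.168 CPM in the shallowest young library and 0.0666 CPM in the shallowest MCC950 library, for counting error only.

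**Figure D3:**
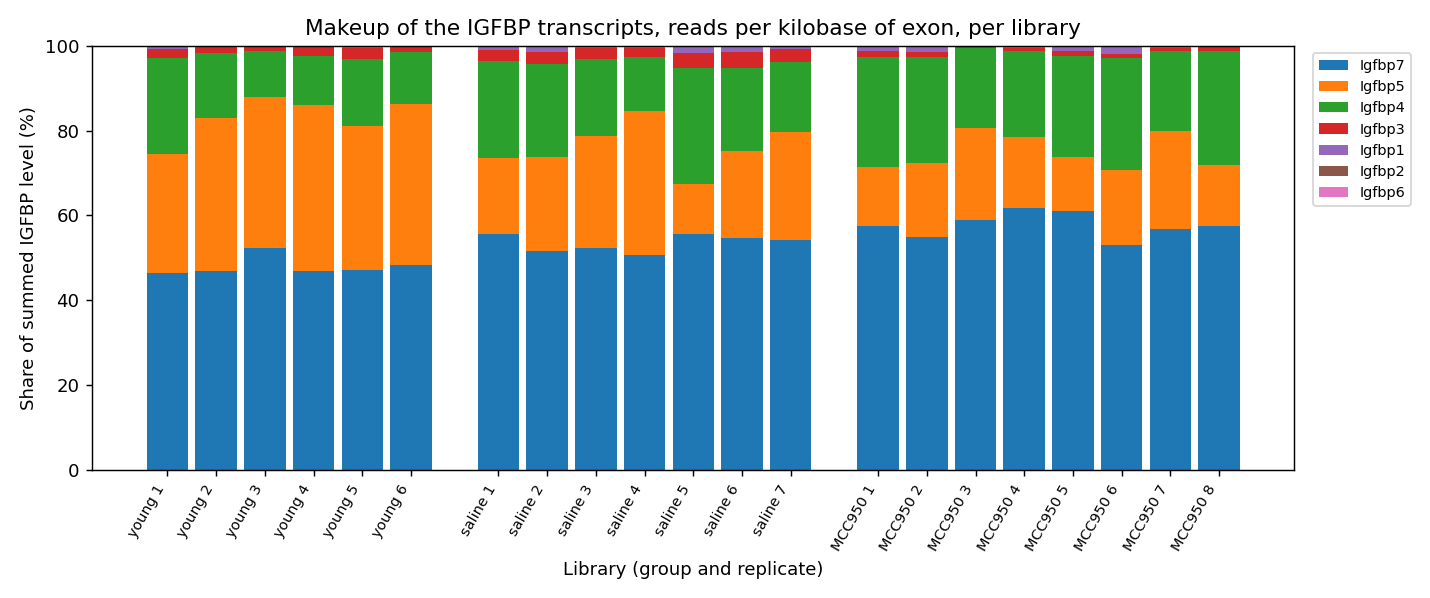
Share of each binding protein gene in the summed reads per kilobase of Igfbp1 to Igfbp7, in percent, 1 stacked bar per library. Igfbp7, Igfbp5 and Igfbp4 fill nearly all of each bar, the Igfbp5 band is widest in young libraries, and the Igfbp3 band is thinnest in MCC950 libraries.

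The makeup of the binding protein transcripts shifted between groups. As a share of the summed IGFBP level, which does not depend on the scaling between libraries, Igfbp5 made up 35.2% ± 3.83 (SD, n = 6) in young, 22.6% ± 7.03 (n = 7) in saline and 17.2% ± 3.68 (n = 8) in MCC950 libraries. Igfbp7 made up 47.9% ± 2.22, 53.6% ± 2 and 57.7% ± 2.91, and Igfbp4 14.8% ± 4.34, 19.9% ± 4.73 and 23.3% ± 3.41. A smaller share of 1 gene enlarges those of the others. From young to saline libraries the level of Igfbp7 did not rise (151 and 125 CPM per kilobase), nor did that of Igfbp4 (46.6 and 46.8). The smaller share of Igfbp3 was 1.76% ± 0.594, 2.95% ± 0.586 and 0.917% ± 0.329. The MCC950 libraries, at 0.249 to 1.23%, did not overlap with the saline libraries, at 2.16 to 3.76%, in the contrast from which Igfbp3 was chosen.

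The ratio of Igfbp3 to Igfbp7 within a library separated MCC950 from saline libraries, both genes having been chosen from this contrast. On the log2 scale of reads per kilobase it was -4.84 ± 0.56 (SD, n = 6) in young, -4.20 ± 0.26 (n = 7) in saline and -6.11 ± 0.78 (n = 8) in MCC950 libraries. Igfbp7 was thus 14.5 to 23.5 times Igfbp3 in saline libraries and 46.9 to 237 times in MCC950 libraries, with young libraries between 18.2 and 51.6 times. The summed IGFBP level was 315 ± 36.2 CPM per kilobase in young, 233 ± 24.5 in saline and 304 ± 48.8 in MCC950 libraries.

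Among the 10 members 9 passed the filter. In the contrast of MCC950 with saline, which led to the choice of the family, no count of members past a threshold is given. For orientation, 16.8% of all genes were called there, 11.9% higher and 4.86% lower, and 1.74% had libraries without overlap (1.15% higher and 0.586% lower). The median difference was 0.26 over the 9 members, Igfbp3 and Igfbp7 included, and 0.00 over all genes. That median is the value of Igfbp1, whose SE was 0.51. Since the contrast led to the choice, it cannot show a shift of the family.

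**Figure D4:**
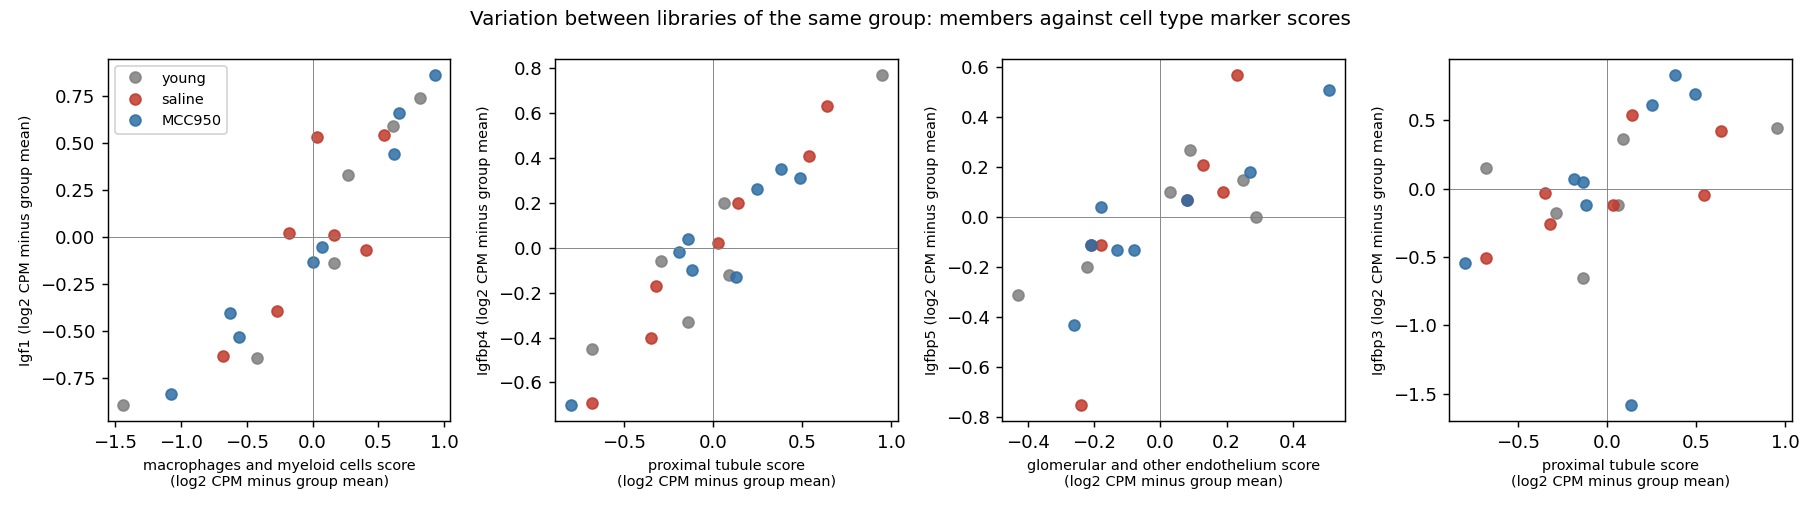
Log2 CPM of Igf1, Igfbp4, Igfbp5 and Igfbp3 (y axes) against the mean log2 CPM of a cell type marker list (x axes), each after its group mean was taken away, for 21 libraries colored by group. Igf1 rises with the macrophage score (r = 0.92), Igfbp4 with the proximal tubule score (r = 0.95) and Igfbp5 with the endothelial score (r = 0.79), while Igfbp3 is loosely related to the proximal tubule score (r = 0.46) with 1 MCC950 library far below the rest.

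Genes that release IGFs from their binding proteins changed in both directions with age. Of 14 genes of the ternary complex, the IGFBP proteases and their inhibitors, 13 were tested, and 2 rose and 3 fell, against 12.2% and 12.4% of all genes. Adamts1, a protease of extracellular matrix, fell from 84.6 to 138 CPM in young to 24.5 to 64.9 in saline libraries, without overlap (-1.05, adjusted p = 0.000733 by edgeR). Plat, the tissue plasminogen activator, fell by 1.22 (adjusted p = 0.001), and Htra1, a serine protease that also carries an IGFBP-like domain, fell by 0.89 (adjusted p = 0.000832). Mmp14, a membrane-bound metalloproteinase, rose by 0.96 (adjusted p = 0.0179) and Ctsd, the lysosomal protease cathepsin D, by 0.24 (adjusted p = 0.0442). Pappa, which encodes pappalysin-1, did not pass the test (-0.76, SE 0.29, adjusted p = 0.0632), nor did Pappa2 (0.81, SE 0.32, adjusted p = 0.0684). The list median was -0.16.

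With MCC950 1 of these 13 genes rose and none fell, against 11.9% and 4.86% of all genes. Htra1 rose from 16.7 ± 3.35 CPM in saline to 31.5 ± 8.14 in MCC950 libraries (0.91, SE 0.16, adjusted p = 0.00176 by edgeR), and the groups overlapped. Igfals, the acid-labile subunit that joins IGFBP-3 and IGF in the ternary complex, did not pass the test (0.90, SE 0.32, adjusted p = 0.0592). With a library left out 1 to 3 were called, the most without saline replicate 5 or MCC950 replicate 7. The list median was -0.09.

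Of 13 genes with an IGFBP amino-terminal domain outside the numbered family, 10 were tested, and with age 1 rose and 3 fell, against 12.2% and 12.4% of all genes. Ccn2, the connective tissue growth factor gene, fell from 60.4 to 157 CPM in young to 33.8 to 63.6 in saline libraries (-1.14, adjusted p = 0.000634 by edgeR). Crim1, a transmembrane regulator of growth factors, fell by 0.76 (adjusted p = 0.00023) without overlap, and Htra1 was the other. The 1 that rose was Htra3, at a low level (3.25, SE 0.69, adjusted p = 0.00187), which is named after its value was seen. With MCC950 1 rose (Htra1) and 1 fell, against 11.9% and 4.86% of all genes. The gene that fell was Esm1, which encodes the endothelial proteoglycan endocan and dropped from 7.2 ± 2.02 CPM in saline to 3.46 ± 0.588 in MCC950 libraries without overlap (-1.06, SE 0.16, adjusted p = 0.000819). The list medians were -0.38 with age and 0.08 with MCC950.

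Growth hormone receptor signalling, which drives Igf1 in liver, had 9 genes tested, of which 3 rose and 1 fell with age, against 12.2% and 12.4% of all genes. Stat5a, a transcription factor of the pathway, rose from 11 ± 0.795 CPM in young to 14.7 ± 0.664 in saline libraries without overlap (0.41, SE 0.06, adjusted p = 0.000112 by edgeR). Stat5b rose by 0.27 (adjusted p = 0.0119) and Ptpn6, a phosphatase of blood cells, by 0.61 (adjusted p = 0.0426). Cish, a feedback inhibitor, fell by 0.58 (adjusted p = 0.0155). With MCC950 1 rose and 1 fell, against 11.9% and 4.86% of all genes. Ghr, the receptor gene, rose by 0.65 (SE 0.22, adjusted p = 0.0456) and Jak2 fell by 0.22 (SE 0.07, adjusted p = 0.044), and the number called was 0 to 3 with a library left out (0 without saline replicate 4 or MCC950 replicate 1, 3 or 8). The list medians were -0.07 and 0.16.

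Insulin and IGF receptor signalling had 34 genes tested, the receptor genes Insr and Insrr among them. With age 4 rose and 9 fell, against 12.2% and 12.4% of all genes. Eif4ebp1, the translation inhibitor 4E-BP1, rose from 5.89 ± 0.646 CPM in young to 8.47 ± 0.63 in saline libraries without overlap (0.53, SE 0.09, adjusted p = 0.000459 by edgeR). Ptpn1, a phosphatase that acts on the insulin receptor, rose by 0.56 (adjusted p = 0.0066) and the adaptor Grb2 by 0.41 (adjusted p = 0.0105). The receptor relative Insrr fell by 0.81 (adjusted p = 0.0252), the adaptor Grb10 by 0.62 (adjusted p = 0.00226) and the receptor substrate Irs1 by 0.59 (adjusted p = 0.00415). With MCC950 2 of 34 (5.88%) rose and none fell, against 11.9% and 4.86% of all genes. They were Mtor, from 23.9 ± 2.58 to 34.5 ± 7.53 CPM (0.53, SE 0.14, adjusted p = 0.0141), and Akt2, by 0.23 (SE 0.06, adjusted p = 0.0196); the number called was 1 to 4 with a library left out, and 1 without saline replicate 3, 4, 6 or 7. The list medians were -0.04 and -0.00.

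These list counts moved with the cell type scores: with the podocyte or the endothelial score as a covariate none of the genes of the 4 lists was called with age. These 2 fits cannot separate the score from age, since the marker sums of young and saline libraries did not overlap. The comparisons with age and with MCC950 share the saline libraries, so their values are not independent of each other.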

How the data were processed

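Reads were trimmed with Trim Galore and aligned with Bowtie2 to mm10 (GRCm38) by the authors, who deposited raw counts per gene from featureCounts; versions, annotation release, strand setting and treatment of multi-mapping reads are not given in the sources used here. The deposited normalized table, the same counts divided by 1 factor per library within a tolerance of 0.001, holds 20 of the 21 libraries and was not used. The paper gives fewer young mice than the labels; the labels were followed.

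Counts were fitted with edgeR 4.0.16 (R 4.3.3) as 3 groups in one model, with TMM scaling, filterByExpr (16377 genes kept) and the quasi-likelihood test with Benjamini-Hochberg adjustment at 0.05. Standard errors were obtained from each log2 fold change and its F value. CPM used TMM-scaled libraries, and lengths are merged GENCODE exons of GRCm38. A marker score is the mean log2 CPM of a list (prior count 2), and the floor is 3 reads. Genes were named from RefSeq for 25275 of 27179 identifiers. The members, gene lists and alternatives were chosen with earlier results of these data known. All members are named. From each list, up to 3 of the largest rises and 3 of the largest falls past the threshold with an average log2 CPM of at least 0 are named, and for likeness the 5 genes of highest r with an average log2 CPM of at least 1. The labels do not name other links between mice, so p-values cover the spread between these libraries. The script was tested on simulated counts. Alternatives were scaling, filter, groups fitted, replicate block, mitochondrial genes, 4 marker score covariates, DESeq2 1.42.0 and each library left out.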

Additional observations from a re-analysis of the deposited data

How the results depend on the processing

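The number of members called with age stayed at 2 or 3 under every alternative except the podocyte and endothelial scores as covariates, where it was 0 in each; Igf1 and Igfbp5 lost their calls there. In these 2 fits all genes called with age came to 15 and 19, and each of the 4 pathway lists to 0. With the macrophage score 3 members were called. For all genes with MCC950, 785 were called with the proximal tubule score, 1593 with the endothelial score and 1523 to 3295 with a library left out; leaving out saline replicate 3 (1745) or 4 (1523) moved it by more than 1.5 times.

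With MCC950 the protease list had 3 called with the replicate block and with DESeq2, 4 with the podocyte score, 0 with the proximal tubule score, 2 with the endothelial score and 1 to 3 with a library left out; with age it had 8 by DESeq2 and 3 to 6 with a library left out. The IGFBP-domain list with MCC950 had 1 with the proximal tubule and 4 with the endothelial score. The growth hormone list with MCC950 had 0 without a filter and with the endothelial score, 1 with the podocyte and the proximal tubule score, and 0 to 3 with a library left out. The insulin and IGF list with MCC950 had 4 when only the 2 groups were fitted, 0 with the proximal tubule and 1 with the endothelial score, and 1 to 4 with a library left out. The cause of these moves was not tested.

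Igfbp7 with MCC950 was 0.23 with the proximal tubule score. By raw reads instead of reads per kilobase, the share of Igfbp5 was 63.4, 46.3 and 38.2% and that of Igfbp7 17.4, 22.5 and 26% in young, saline and MCC950 libraries. With mitochondrial genes left out of the library sizes, Igfbp7 was at 439, 363 and 512 CPM per kilobase.

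Same-numbered libraries had residual correlations of -0.0614 to 0.347 over 6 pairs of young and saline and -0.144 to 0.335 over 7 pairs of saline and MCC950. Differently numbered pairs were not compared, so these values cannot decide whether the replicate numbers pair the mice, and the labels name no pairing. With the replicate block the members called with age included Igfbp1 (1.12, adjusted p = 0.0458 by edgeR). Depth limits Igfbp2 and Igfbp6, with at most 28 reads per library.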
